A study of Mus musculus with 81 samples.

Results

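The interferon regulatory factors (IRFs) were followed by gene symbol through every RNA-seq library of the study. The set held 8 genes, Irf1, Irf2, Irf3, Irf4, Irf5, Irf7, Irf8 and Irf9, out of 54079 genes listed in every library. The rule that chose them uses gene symbols, and all 8 passed the filter on low counts in every comparison. Levels are given as CPM, counts scaled to a common library size.

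IRFs share a DNA-binding domain that recognises GAAA repeats. IRF3 and IRF7 are phosphorylated downstream of nucleic acid sensors and switch on the type I interferon genes. IRF9 joins STAT2 in the complex that type I interferon activates, and this complex binds the interferon-stimulated response element (ISRE) of interferon-stimulated genes (ISGs), among them Irf7 itself. IRF1 is induced by interferon-γ (IFNg), and IRF2 competes with it for the same sites. IRF5 acts below Toll-like receptors, while IRF4 and IRF8 bind together with the myeloid factor PU.1. In macrophages IRF8 and IRF5 are known for inflammatory programs and IRF4 for alternative activation.

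The study deleted histone H3.3 in myeloid cells. WT mice carried floxed H3f3a and H3f3b alleles without cre, and cKO mice carried the same floxed alleles and 2 copies of LysM cre, which replaces Lyz2, so that the loss of Lyz2 and the loss of H3.3 cannot be told apart. LysM cre acts in macrophages and granulocytes. Mice were on a C57BL/6 background and 8 to 10 weeks old. RNA was taken in bulk from cultured cells or, for peritoneal macrophages, from cells isolated from the body. The time course sampled bone marrow cells on days 3, 5 and 7 of differentiation into bone marrow-derived macrophages (BMDMs), with 3 WT and 3 cKO libraries a day. Day 8 BMDMs were untreated or received IFNg for 12 h (3 WT and 2 cKO libraries each, since 2 further cKO libraries had conflicting labels). Peritoneal macrophages gave 3 WT and 3 cKO libraries. In the antibody experiment WT and cKO cells were grown with no antibody, control antibody or IFNAR1 antibody, renewed every 12 h, and lysed on day 6 (3 libraries an arm). Lastly, 3 sets of WT and cKO BMDMs (sets 1 to 3) were deposited with BMDMs of the double KOs cKO:StingKO, cKO:MavsKO and cKO:Irf7KO, which lacked Sting, Mavs or Irf7 in addition, with 3 libraries each. For the Sting KO and Mavs KO parent lines the paper lists a mixed strain, with backcrossing described for Mavs. It lists the double KOs themselves as C57BL/6. The labels do not tie a set to a double KO, so each double KO was compared with the mean of the 3 cKO sets. Libraries of set 3 and cKO:Irf7KO listed 54146 genes, and those of sets 1 and 2, cKO:StingKO and cKO:MavsKO listed 55536. That mean thus spans both gene lists, and the part of this in the double KO values was not tested.

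The files hold raw counts per gene, with 3614967 to 45581528 counts a library. H3f3a was lower in cKO in all 12 cKO and WT comparisons, for instance 15 ± 0.46 against 54.9 ± 5.2 CPM (mean ± SD, n = 3) on day 3. H3f3b transcripts were lower only in the antibody experiment (48.8 against 376 CPM without antibody), and elsewhere their difference did not pass the test. Summed CPM of 7 macrophage markers reached 2887 to 7618 in bone marrow cells and BMDMs and 9467 to 11624 in peritoneal macrophages. Summed neutrophil markers were high on day 3 (1315 to 2500 CPM in WT, 2346 to 3427 in cKO) and low on day 7 (55.6 to 101 in WT, 75.1 to 227 in cKO), so the early libraries were mixed cell populations. In such bulk RNA, a change in the number of expressing cells and a change of RNA in each cell cannot be told apart. The cKO library of day 8 with IFNg, replicate 1, stood apart with the fewest counts, 57.1% unmapped reads against a median of 8.27% over all libraries and the lowest scaling factor, 0.459.

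Promoters of 4 members are shown, 3 with a match to the motifs below and that of Irf7. They are the 250 bases before the RefSeq transcription start on GRCm38.p6, printed 5′ to 3′ on the strand of the gene, with capitals marking matches to 3 motifs. These were the ISRE core GAAANNGAAA, the IFNg-activated site GAS TTCNNNGAA, which reads the same on both strands, and the PU.1-IRF composite element EICE GGAANNGAAA, each searched on both strands.
Irf1, chr11:53769764-53770013, plus strand: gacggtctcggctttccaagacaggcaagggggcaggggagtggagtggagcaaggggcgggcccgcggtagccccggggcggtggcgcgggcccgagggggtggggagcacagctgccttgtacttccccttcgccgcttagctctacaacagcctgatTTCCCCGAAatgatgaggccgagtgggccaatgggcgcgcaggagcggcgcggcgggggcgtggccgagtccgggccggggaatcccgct
Irf2, chr8:46739495-46739744, plus strand: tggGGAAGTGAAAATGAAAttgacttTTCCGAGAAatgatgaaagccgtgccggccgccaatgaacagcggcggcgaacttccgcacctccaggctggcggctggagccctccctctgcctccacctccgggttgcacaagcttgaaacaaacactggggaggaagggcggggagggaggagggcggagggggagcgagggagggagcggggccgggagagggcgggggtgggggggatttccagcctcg
Irf8, chr8:120736108-120736357, plus strand: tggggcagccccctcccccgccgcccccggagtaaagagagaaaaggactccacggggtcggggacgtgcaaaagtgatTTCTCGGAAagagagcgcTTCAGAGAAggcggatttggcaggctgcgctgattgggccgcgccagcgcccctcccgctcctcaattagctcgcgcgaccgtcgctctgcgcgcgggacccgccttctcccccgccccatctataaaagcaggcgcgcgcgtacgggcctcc
Irf7, chr7:141266425-141266674, minus strand: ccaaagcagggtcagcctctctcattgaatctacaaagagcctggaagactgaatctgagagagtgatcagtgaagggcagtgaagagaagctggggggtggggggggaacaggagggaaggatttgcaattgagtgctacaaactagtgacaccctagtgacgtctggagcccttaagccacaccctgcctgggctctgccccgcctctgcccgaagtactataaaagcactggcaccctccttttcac

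Irf1 held a GAS at -90 to -82 from the start (TTCCCCGAA) and Irf8 held a GAS at -171 to -163 (TTCTCGGAA) and another at -153 to -145 (TTCAGAGAA). Irf2 held an EICE at -247 to -238 (GGAAGTGAAA) that overlapped an ISRE at -241 to -232 (GAAAATGAAA), and a GAS at -224 to -216 (TTCCGAGAA). The 8 members had 11 such windows, because Irf1, Irf8 and Irf9 have more than 1 annotated start. A GAS was found in 3 of the 11 windows, in 3 members, against 2306 of 32851 windows in the genome (7.02%). An ISRE was found in 1 member window against 2.98% of all windows, and an EICE in 1 against 2.3%. The Irf7 window held no match, which says only that these letters are not in this window.

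Because longer genes collect more reads, the members were ranked by CPM per kb of exon, a level scale. In WT cells of day 3 the highest was Irf5 at 73.2 ± 5.8 (SD, n = 3), ahead of Irf8 at 24.5 ± 3.3 and Irf3 at 10.3 ± 0.51. Irf7 stood next to last at 1.27 ± 0.44 and Irf4 last at 0.736 ± 0.15, while Irf9 and Irf1 (4.67 and 4.02) overlapped. In cKO cells of the same day Irf7 headed the order at 123 ± 32, above Irf5 at 69.8 ± 2.2, without overlap. Irf4 held the last rank in both genotypes. After IFNg the WT order was led by Irf1 at 307 ± 33, followed by Irf8 (172), Irf7 (169) and Irf5 (141), whose libraries overlapped, and the cKO order by Irf7 at 527 (n = 2) ahead of Irf1 at 284. WT peritoneal macrophages had a different order, with Irf5 at 88.4 and Irf2 at 57.1 on top and Irf8, the second member in WT cells of day 3, at 9.66 ± 0.13 and above only Irf4 at 3.83 ± 2.0. The experiments were normalised separately, so values from different experiments are given side by side and were not tested against each other. Irf5 shares 14.1% of its exonic bases with Tnpo3 on the other strand, and since the counts do not use strand, reads from the 2 genes cannot be told apart there. For the other members the shared part was 3.4% or less.

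**Figure D1:**
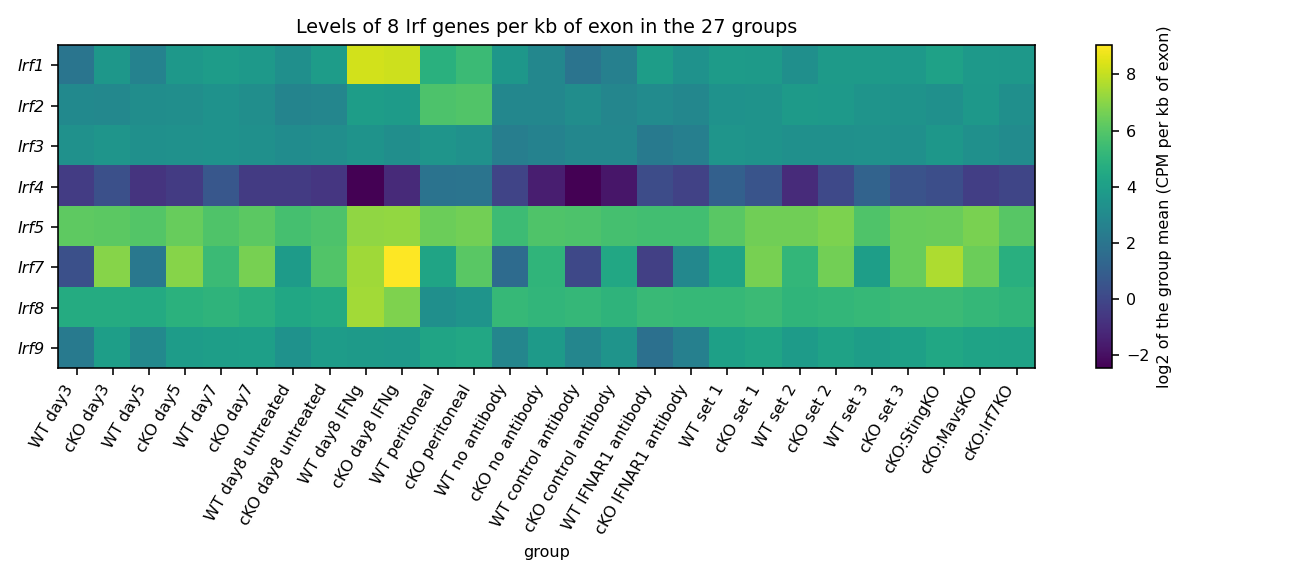
Heat map of the group mean of each of the 8 members (rows) in the 27 groups (columns), colour giving log2 of CPM per kb of exon. Irf1 and Irf8 are brightest in the IFNg groups, Irf2 in the peritoneal groups, Irf7 is brighter in each cKO group than in its WT group, and Irf4 is the darkest in each group but WT with IFNAR1 antibody, where Irf7 is lowest (0.818 against 1.14 CPM per kb).

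Among the 8 members, Irf7 was the one that differed between cKO and WT cells almost throughout. On day 3 its level was 6.67, 4.22 and 3.48 CPM in the WT libraries and 591, 352 and 447 CPM in the cKO libraries. The groups were far apart, and the log2 fold change was 6.61 ± 1.04 (SE), a 97.4-fold difference with an adjusted p of 0.00087. All adjusted p-values are Benjamini-Hochberg values over all genes tested, from edgeR's quasi-likelihood test, and a gene was called under 0.05. Irf9, the partner of STAT2, measured 27.6, 26.7 and 21.1 CPM in WT and 85.6, 82.6 and 85.7 CPM in cKO on day 3 (log2 fold change 1.75 ± 0.20, adjusted p = 6.8e-05). Irf1 measured 16.7, 16.3 and 15 CPM in WT and 48.5, 44.3 and 54.2 CPM in cKO (1.61 ± 0.25, adjusted p = 0.00078). For both genes every cKO library lay above every WT library. Such separation of libraries is given here and below as a description, since its share over all genes was not counted. These were the 3 members called on day 3, where 8.65% of the 15955 genes tested were called. The other 5 had log2 fold changes from -0.07 to 0.76 and adjusted p from 0.47 to 0.97.

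On day 5 the same 3 members were called, when 3.12% of genes were. Irf7 measured 34.2, 7.23 and 8.04 CPM in WT and 1124, 133 and 166 CPM in cKO (log2 fold change 4.85 ± 0.93, adjusted p = 0.01). Replicate 1 was the highest library in both genotypes, and every cKO library remained above every WT library. Irf9 rose from 42.0 ± 12.5 to 81.3 ± 16.6 CPM (0.95, adjusted p = 0.013) and Irf1 from 24.8 ± 3.14 to 50.2 ± 20.3 CPM (1.02, adjusted p = 0.031). The direction held when any 1 library was left out, with log2 fold changes of 3.2 to 5.95 for Irf7, 0.79 to 1.22 for Irf9 and 0.65 to 1.2 for Irf1, but calls were lost. Without cKO replicate 1 the log2 fold change was 3.2 for Irf7 (adjusted p = 0.058), 0.79 for Irf9 (0.074) and 0.65 for Irf1 (0.2), calls of all 3 were also lost without WT replicate 2 or WT replicate 3 (adjusted p 0.07 to 0.13), and that of Irf1 without WT replicate 1 (1.12, 0.05).

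On day 7 no member was called, with 1.82% of genes called (edgeR; 2654 genes had an unadjusted p under 0.05, and DESeq2 also called no member). Irf7 measured 341, 80.5 and 45.2 CPM in WT and 545, 294 and 329.5 CPM in cKO. The groups overlapped through WT replicate 1, and the log2 fold change was 1.32 (95% interval -0.25 to 2.89, adjusted p = 0.43). On this day the replicate numbers paired the libraries. With the replicate as a block the change was 1.78 and was called (adjusted p = 0.046). That block spanned all time course libraries, also groups whose numbers did not pair, such as WT of days 3 and 5. Irf9 (88.4 ± 6.1 in cKO, 86.6 ± 15 in WT) and Irf1 (54.2 ± 2.2 and 58.9 ± 20) lay at like levels in both genotypes, with intervals of -0.34 to 0.40 and -0.58 to 0.35 on the log2 scale.

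Between days 3 and 7 of WT differentiation 4 members rose, where 24.5% of genes were called. Irf7 rose from 4.79 ± 1.7 to 156 ± 162 CPM (5.03, adjusted p = 0.0023), Irf9 from 25.1 ± 3.5 to 86.6 ± 15 CPM (1.78, adjusted p = 3.8e-05), Irf1 from 16 ± 0.86 to 58.9 ± 20 CPM (1.88, adjusted p = 0.00017) and Irf2 from 58.3 ± 7.0 to 78.0 ± 9.9 CPM (0.42, adjusted p = 0.015). In cKO cells none was called between these days (log2 fold changes -0.79 to 0.32, 14.7% of genes called, 4599 genes at an unadjusted p under 0.05, and none of the 8 in DESeq2). The difference between the cKO effect on day 7 and on day 3 was called for Irf9 at -1.72 ± 0.27 (adjusted p = 0.029), where 0.0439% of genes were called, and missed the threshold for Irf1 (-1.73, adjusted p = 0.063) and Irf7 (-5.28, adjusted p = 0.081). The replicate numbers paired cKO with WT on both days. With the replicate block over all time course libraries, Irf1 (-1.73, adjusted p = 0.03) and Irf7 (-4.93, adjusted p = 0.0054) were called as well as Irf9 (-1.72, adjusted p = 0.0051). The Irf9 value lay between -1.83 and -1.61 when any of the 12 libraries was left out. It was still called without WT day 7 replicate 1 or 3 and lost its call without any of the other 10 (adjusted p up to 0.13). The Irf2 call among WT days was lost without WT day 3 replicate 1 or 3 (0.36, adjusted p 0.077 and 0.076) or WT day 7 replicate 2 (0.32, adjusted p = 0.064), while Irf4 (1.54) and Irf5 (-0.58) were called without WT day 7 replicate 1, Irf8 (0.55) without replicate 3, and Irf2 in cKO (0.40, adjusted p = 0.047) without cKO day 3 replicate 3.

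In untreated BMDMs of day 8 Irf7 measured 54.7, 63.4 and 43.8 CPM in WT and 200.2 and 256 CPM in cKO (2.08 ± 0.23, adjusted p = 0.0035), and it was the member called when 0.658% of genes were. Without cKO replicate 2 it was 1.89 with an adjusted p of 0.051. In peritoneal macrophages, which mature in the body, Irf7 measured 80.8, 69.0 and 65.4 CPM in WT and 249, 232 and 301 CPM in cKO (1.86 ± 0.17, adjusted p = 0.0029), again as the member called, here among 1.06% of genes. Irf1 was 115 ± 5.7 and 165 ± 34 CPM there, every cKO library above every WT library, without passing the test (0.52, adjusted p = 0.33). Peritoneal Irf2 and Irf5 were not called, with 95% intervals of -0.29 to 0.43 and -0.15 to 0.36, although every cKO library of Irf5 (276 ± 7.41 CPM) lay above every WT library (257 ± 9.53 CPM).

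**Figure D2:**
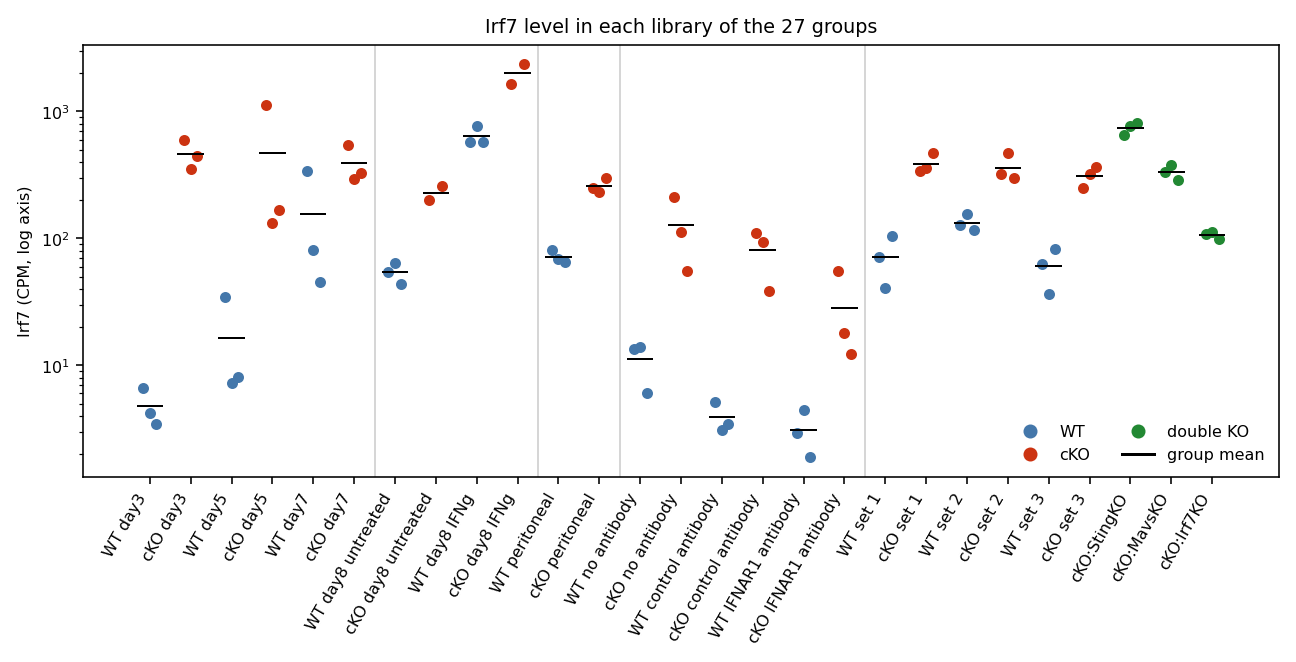
Irf7 level in CPM on a log axis for each library of the 27 groups, with WT in blue, cKO in red and double KOs in green and a line at each group mean. The cKO libraries lie above the WT libraries of the same condition except on day 7, where WT replicate 1 at 341 CPM lies within the cKO range.

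The 3 sets of BMDMs were sequenced deepest, with 21504555 to 45581528 counts a library. Irf7 measured 70.8, 40.7 and 104 CPM in WT and 337, 356 and 470.0 CPM in cKO of set 1 (2.44 ± 0.27, adjusted p = 2.4e-07). It measured 126, 155 and 115 against 318, 467 and 297 CPM in set 2 (1.45 ± 0.26, adjusted p = 0.00019), and 62.5, 36.6 and 82.6 against 248, 321 and 362 CPM in set 3 (2.36 ± 0.27, adjusted p = 3.3e-07). No WT library overlapped a cKO library in any set. Between 21.9% and 35.9% of genes were called in these sets (34.6% in set 1, 21.9% in set 2 and 35.9% in set 3), so a call here was common. Summed neutrophil markers (7 genes) were 49.3 to 129 CPM in WT and 124 to 288 CPM in cKO of these sets, and their part in the differences was not tested.

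Irf5, the Toll-like receptor member, was called higher in cKO of set 1 (208, 151 and 242 CPM in WT, 280.1, 252 and 270.0 CPM in cKO; 0.42, adjusted p = 0.0053) and of set 3 (192, 150.0 and 170.0 against 228, 248 and 236 CPM; 0.47, adjusted p = 0.0018). In set 2 it was 273 ± 6.8 in WT and 313 ± 24 CPM in cKO, not called (0.19, adjusted p = 0.24). Irf9 was called in set 2, from 76.6 ± 0.77 to 95.7 ± 2.3 CPM (0.32, adjusted p = 0.0013), and in sets 1 and 3 its difference was 0.16 and 0.15 (adjusted p 0.077 and 0.099). All of these were changes of less than 1.4-fold.

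Irf4, the lowest member, went opposite ways between sets. In set 2 it measured 1.87, 3.01 and 2.15 CPM in WT and 4.93, 5.75 and 4.97 CPM in cKO (1.14 ± 0.33, adjusted p = 0.013), and in set 3 18.8, 6.54 and 8.12 CPM in WT and 7.32, 7.32 and 6.01 CPM in cKO (-0.73 ± 0.28, adjusted p = 0.046). Set 3 overlapped and its value rested on WT replicate 1. Without it the difference was -0.10 (adjusted p = 0.81), and without any cKO library of that set it was -0.78 to -0.63 with an adjusted p of 0.072 to 0.16. The set 2 call was lost without WT replicate 1 (0.99, adjusted p = 0.069). Summed B cell markers (7 genes) moved with Irf4, at 20.2 to 26.8 CPM in WT and 33.9 to 40.3 in cKO of set 2 against 95.1 to 193 in WT and 39.6 to 61.2 in cKO of set 3. On day 7, WT replicate 2 had the highest Irf4 of the time course (16.4 CPM beside 1.35 and 5.11), and the B cell sum of that group ranged from 57.7 to 193 CPM. The part of B cells in the Irf4 values was not tested.

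Over the 12 comparisons of cKO with WT, Irf7 was called higher in 11, and every cKO library lay above every WT library in those 11, with fold differences of 2.5 to 97.4 over all 12. With so few libraries a group, separation alone does not mark a change, and its share over all genes was not counted. Irf9 was called higher in 4, Irf1 and Irf5 in 2 each, and Irf4 once higher and once lower. Irf2, Irf3 and Irf8 were called in none of the 12, with log2 fold changes from -0.37 to 0.07, -0.22 to 0.24 and -0.63 to 0.29. Outside the IFNg libraries, which are described next, leaving out 1 library added calls for Irf8 in set 3 (0.39 without WT replicate 1), Irf9 in set 1 (0.25 without WT replicate 3) and set 3 (0.20 without cKO replicate 1), and Irf5 without antibody (0.82 without WT replicate 1).

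**Figure D3:**
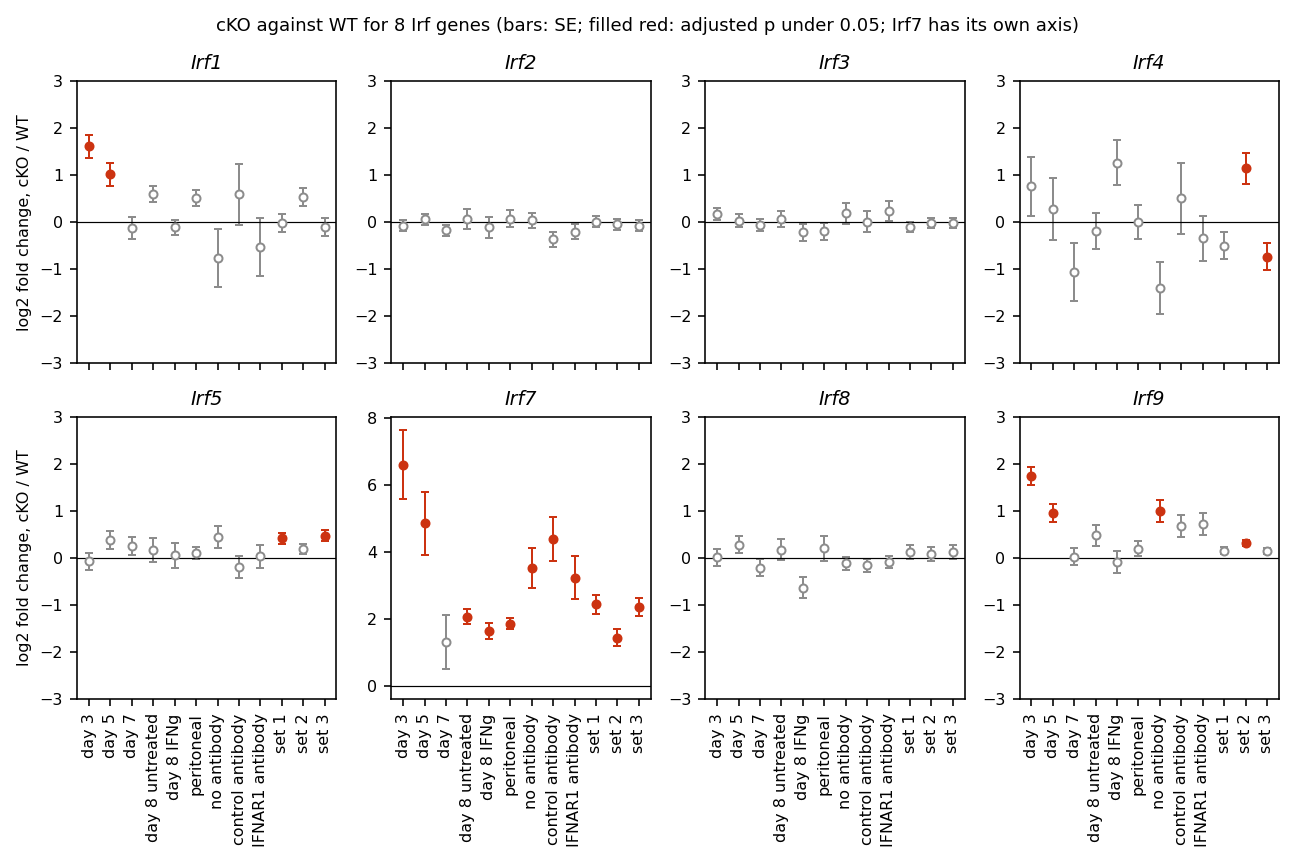
Log2 fold change of cKO over WT for each of the 8 members in the 12 comparisons, as points with bars of the SE, filled red where edgeR's adjusted p was under 0.05 (Irf7 has its own axis). Irf7 ranges from 1.32 to 6.61 and is filled in 11 comparisons, while Irf2, Irf3 and Irf8 are never filled.

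IFNg moved most members. In WT day 8 BMDMs 6 of 8 members were called after 12 h (38.9% of 13075 genes were called), and in each of these the treated and untreated libraries did not overlap. Irf1, which IFNg induces directly, measured 37.2, 43.2 and 35.9 CPM untreated and 1099, 1358 and 1209 CPM with IFNg (4.98 ± 0.18, 31.5-fold, adjusted p = 2e-07). Irf8, with 2 GAS motifs printed above, measured 141, 166 and 133 CPM untreated and 967, 1359.7 and 1315 CPM treated (3.05 ± 0.22, 8.3-fold, adjusted p = 5.2e-06). Irf7 measured 572, 763 and 574 CPM treated, 11.8-fold over untreated (3.56 ± 0.23, adjusted p = 3e-06).

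The remaining WT calls were smaller. Irf5 rose from 147 ± 20 to 409 ± 41 CPM (1.48, adjusted p = 0.001) and Irf2 from 49.1 ± 0.69 to 115 ± 11 CPM (1.23, adjusted p = 0.001). Irf4 was the member that fell, from 4.16, 2.86 and 3.76 CPM to 1.5, 0.445 and 0.721 CPM (-1.96 ± 0.39, adjusted p = 0.003), the treated values resting on 14, 3 and 6 counts. Irf3, which is regulated mainly at the protein level, and Irf9 were not called (0.28 and 0.40, adjusted p 0.18 and 0.15).

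In cKO BMDMs IFNg raised the same 5 members that it raised in WT, with 33.9% of genes called. Irf1 went from 56.0 and 61.2 CPM to 1008 and 1253 CPM (4.27, adjusted p = 3.7e-06), Irf8 from 155 and 175 CPM to 610.2 and 962 CPM (2.25, adjusted p = 0.00017), and Irf7 from 200.2 and 256 CPM to 1632 and 2346 CPM (3.12, adjusted p = 3.8e-05). Irf5 (1.37, adjusted p = 0.0062) and Irf2 (1.05, adjusted p = 0.0093) rose less, Irf5 losing its call without cKO untreated replicate 1 (1.33, adjusted p = 0.059) and Irf2 without cKO untreated replicate 2 (0.86, adjusted p = 0.096). Irf4 (3.64 and 2.63 CPM untreated, 2.41 and 2.11 treated) was not called in cKO (-0.51, adjusted p = 0.44).

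The interaction test of the IFNg response between cKO and WT called no member (edgeR, differences from -0.80 to 1.45, adjusted p 0.49 to 0.94). It called 0% of genes (1207 had an unadjusted p under 0.05), and DESeq2 called 49 genes and none of the 8. With IFNg present, Irf7 was still higher in cKO, at 1989 ± 505 against 636 ± 109 CPM (1.64 ± 0.23, adjusted p = 0.0059, with 5.48% of genes called). Irf8 was 967, 1359.7 and 1315 CPM in WT and 610.2 and 962 CPM in cKO, without overlap and without a call (-0.63, adjusted p = 0.12). These values lean on the 2 cKO libraries, of which replicate 1 was the shallow one described above. Without replicate 1, Irf7 and Irf5 (0.53, adjusted p = 0.047) were called in cKO against WT. Without replicate 2, which leaves the shallow library alone, Irf7 and 4 others were called, with Irf2 at -0.63, Irf5 at -0.61, Irf8 at -1.02 and Irf9 at -0.64, and the interaction was called for 5 members, at -0.90 for Irf1, -0.69 for Irf2, -0.79 for Irf5, -1.19 for Irf8 and -1.13 for Irf9. In that setting Irf9 was also called lower after IFNg in cKO (-0.73, adjusted p = 0.0066). Summed dendritic cell markers (7 genes) also rose with IFNg, from 1.06 to 1.86 CPM to 51.7 to 76.9 in WT. In cKO the sum went from 1.37 to 2.27 CPM to 24.7 to 37.7. Siglech was at 0 in the treated and untreated groups of both genotypes. Cd209a was at 0 in treated cKO but not in untreated cKO. The part of these markers in the Irf8 values was not tested.

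**Figure D4:**
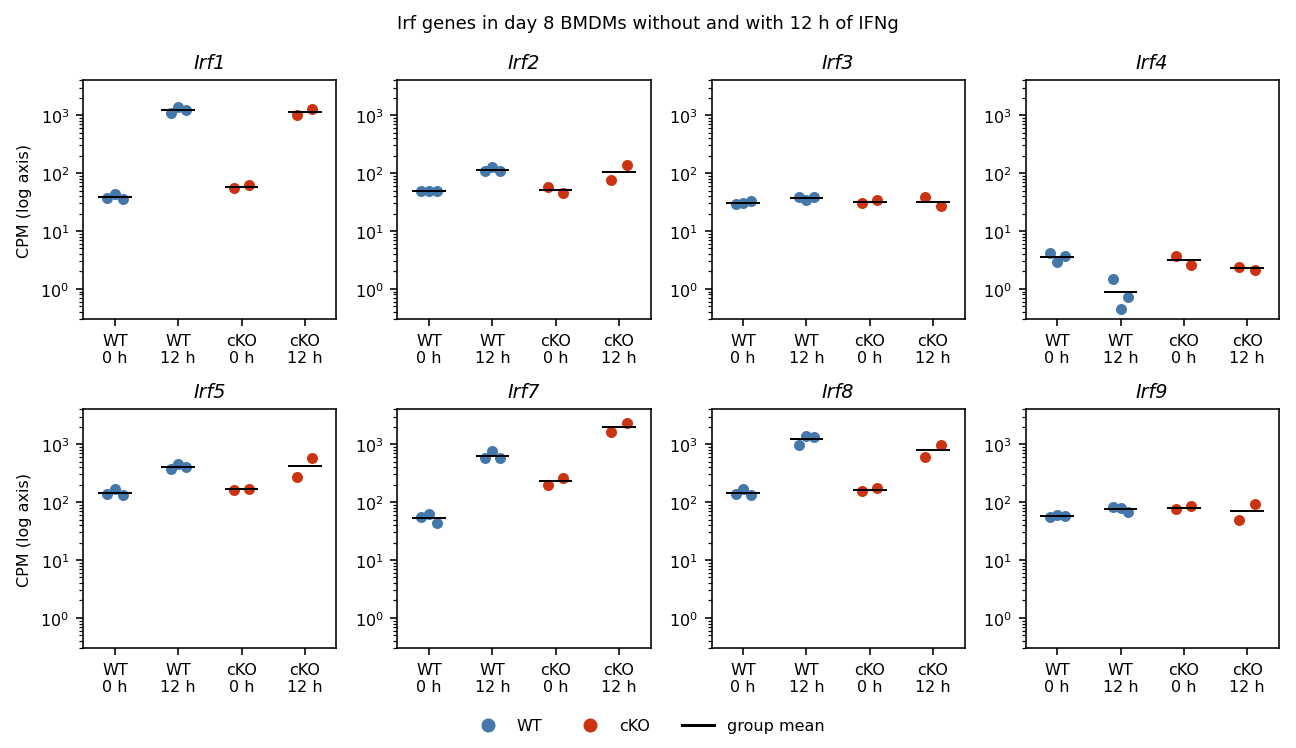
CPM on log axes of the 8 members in day 8 BMDMs without and with 12 h of IFNg, 1 panel a member, with points for the 3 WT (blue) and 2 cKO (red) libraries and lines for group means. Irf1, Irf2, Irf5, Irf7 and Irf8 rise in both genotypes, Irf4 falls in WT, and Irf3 and Irf9 change least.

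The antibody experiment asked whether signalling through the type I interferon receptor carries these differences. Irf7 stayed higher in cKO in each arm. Without antibody it measured 13.4, 13.9 and 6.07 CPM in WT and 213, 113 and 55.5 CPM in cKO (3.51 ± 0.60, adjusted p = 0.0026). With control antibody it measured 5.10, 3.11 and 3.47 against 109.6, 94.2 and 38.3 CPM (4.38 ± 0.66, adjusted p = 0.001), and with IFNAR1 antibody 2.92, 4.45 and 1.89 against 54.9, 17.9 and 12.3 CPM (3.24 ± 0.64, adjusted p = 0.026). No cKO library overlapped a WT library in any arm. The shares of genes called were 8.16%, 5.11% and 0.698% in the 3 arms. The call under IFNAR1 antibody was lost without WT replicate 1 (3.21, adjusted p = 0.12), WT replicate 2 (3.56, adjusted p = 0.062) or cKO replicate 1 (2.32, adjusted p = 0.052).

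Irf9 was the second member called in cKO without antibody, at 75.8 ± 13 against 37.8 ± 13 CPM (2-fold, adjusted p = 0.015), and this call was lost without WT replicate 2 or 3 or without cKO replicate 1 or 2 (0.86 to 0.99, adjusted p 0.053 to 0.089). With control antibody it was 61.4 ± 15 against 38.5 ± 3.1 CPM (0.68, adjusted p = 0.12) and with IFNAR1 antibody 31.0 ± 4.4 against 18.7 ± 3.6 CPM (0.73, adjusted p = 0.21). In these 2 arms too every cKO library lay above every WT library.

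Against control antibody, IFNAR1 antibody lowered Irf9 in both genotypes. WT libraries went from 41.3, 35.2 and 39.0 CPM to 18.4, 15.3 and 22.5 CPM (-1.04 ± 0.23, adjusted p = 0.013, with 11.2% of genes called), and cKO libraries from 71.8, 67.9 and 44.5 CPM to 35.8, 30.1 and 27.1 CPM (-0.98 ± 0.23, adjusted p = 0.024, with 4.68% of genes called). The arms did not overlap in either genotype. The WT call was lost without control replicate 1 or IFNAR1 replicate 1 or 2 (-1.02 to -0.91, adjusted p 0.055 to 0.058). The cKO call was lost without control replicate 1 or 2 or any IFNAR1 library (-1.10 to -0.85, adjusted p 0.064 to 0.09).

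Irf7 in cKO measured 80.7 ± 38 CPM with control antibody and 28.4 ± 23 CPM with IFNAR1 antibody, which did not pass the test (-1.5 ± 0.56, adjusted p = 0.14), and in WT it was low in both arms (3.90 ± 1.1 and 3.09 ± 1.3 CPM; -0.36, adjusted p = 0.73). With a replicate block over all antibody libraries the cKO difference was called (-1.6, adjusted p = 0.0088). The replicate numbers of these cKO arms fell short of the pairing rule (correlations 0.091 to 0.14). The IFNAR1 effect on Irf7 differed between cKO and WT by -1.14 (95% interval -2.86 to 0.58, adjusted p = 0.93). No member was called in that interaction test (edgeR), which called 0% of genes (990 had an unadjusted p under 0.05), and DESeq2 called 48 genes and none of the 8.

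Irf4 of WT was low in the control antibody arm. It measured 3.97, 3.67 and 5.97 CPM without antibody, 0.699, 0.849 and 1.19 CPM with control antibody and 8.10, 6.27 and 2.45 CPM with IFNAR1 antibody. The control arm was below each of the others without overlap, by 2.34 (SE 0.61, adjusted p = 0.029) against no antibody, where 9.74% of genes were called, and IFNAR1 antibody was above control antibody by 2.65 (SE 0.60, adjusted p = 0.014). These comparisons share the control libraries. The first call was lost without no-antibody replicate 2 or 3 or any control library (-2.53 to -2.09, adjusted p 0.055 to 0.12), and the second without control replicate 1 or 2 or IFNAR1 replicate 1 (2.25 to 2.60, adjusted p 0.059 to 0.083). Irf1 varied alike in WT, at 26.9, 85.7 and 34.8 CPM, 16.1, 16.5 and 13.3 CPM and 55.9, 111 and 16.7 CPM in the 3 arms, with no call (adjusted p 0.1 and 0.056). Without WT IFNAR1 replicate 3, Irf1 (2.44) and Irf3 (-0.85) were called against control antibody, without cKO IFNAR1 replicate 3 so was Irf4 in cKO (2.22), and without WT no-antibody replicate 1 Irf2 (0.60) and Irf5 (0.80) were called for control against no antibody. Summed B cell markers lay at 13.3 to 21.3 CPM, 7.64 to 9.05 CPM and 16.2 to 34.6 CPM in the 3 WT arms, with Pax5 at 0 in the arms with control and IFNAR1 antibody, and their part in the Irf4 values was not tested. In WT, Irf7 with control antibody was below no antibody by 1.51 on the log2 scale without a call (adjusted p = 0.13). Here the replicate numbers paired the libraries. With the replicate block over all antibody libraries, whose other comparisons did not pair, Irf7 was called (-1.5, adjusted p = 0.019). In cKO no member was called between control and no antibody (edgeR, 2.09% of genes called, 2062 at an unadjusted p under 0.05, and none of the 8 in DESeq2). Lyz2, which is intact in WT, also differed among the WT arms, with 7702 ± 3225 CPM when no antibody was added, 23094 ± 227 under control and 12047 ± 2845 under IFNAR1 antibody, and whether the arms differed in culture state was not tested.

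**Figure D5:**
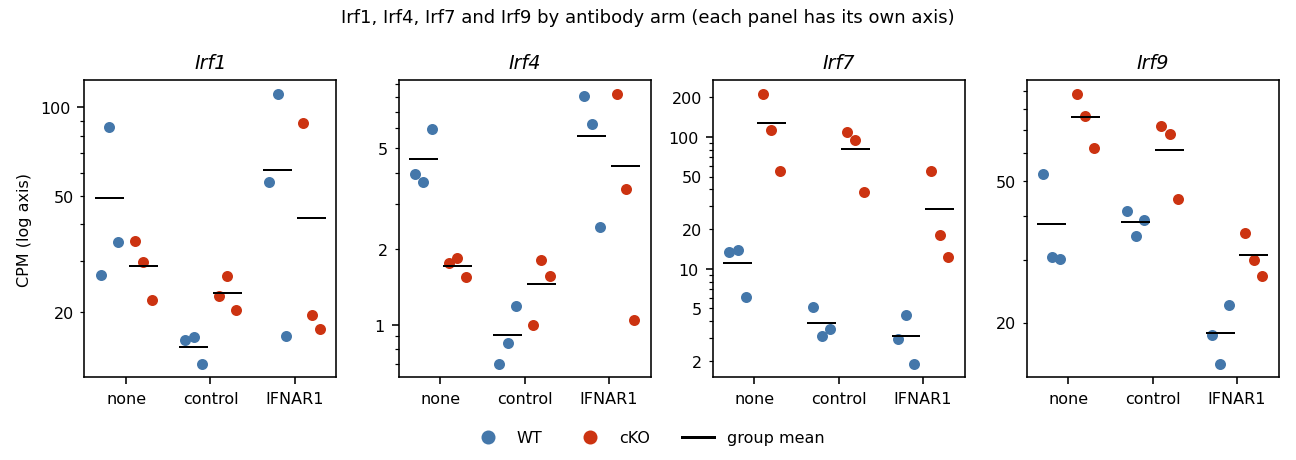
CPM of Irf1, Irf4, Irf7 and Irf9 on log axes in the 3 antibody arms, 1 panel a gene, with a point for each WT (blue) and cKO (red) library and a line at each group mean. Irf7 is higher in cKO in each arm, Irf9 is lowest under IFNAR1 antibody in both genotypes, and Irf4 of WT is lowest under control antibody.

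The double KOs asked whether Sting, Mavs or Irf7 is needed for the ISG state of cKO BMDMs. The 3 comparisons share the cKO sets. Of the targeted genes, Tmem173 (Sting) was 5.51 ± 0.55 CPM in cKO:StingKO against 78.6 in cKO, and Mavs transcripts were 37.5 ± 0.35 CPM in cKO:MavsKO against 45.2 (-0.26, adjusted p = 0.0041), so this count does not show the loss of MAVS. For Sting, Mavs and Irf7 alike, the paper reports the deletion from genomic PCR, qRT-PCR and RNA-seq tracks. In cKO:StingKO, Irf7 measured 647, 765 and 817 CPM, each above all 9 cKO libraries of the sets (248 to 470.0 CPM), a log2 difference of 1.08 ± 0.20 (adjusted p = 0.00016). Irf9 was at 113 ± 0.59 against 96.1 ± 5.6 CPM (0.23, adjusted p = 0.0021) and Irf3 at 42.2 ± 4.2 against 35.2 ± 2.1 CPM (0.26, adjusted p = 0.012). Here 36.4% of genes were called. The Irf3 call was lost without StingKO replicate 1 (0.19, adjusted p = 0.14) or 3 (0.25, adjusted p = 0.057) and against set 1 alone (0.18, adjusted p = 0.18), as was that of Irf9 against set 1 alone (0.15, adjusted p = 0.12). Irf2 was called lower without cKO set 3 replicate 3 (-0.25, adjusted p = 0.047). Summed stromal markers (5 genes) were 162 to 199 CPM in cKO:StingKO and 22.9 to 69.0 in the cKO sets, and their part was not tested.

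In cKO:MavsKO no member was called (9.32% of genes were called, 4044 had an unadjusted p under 0.05 in edgeR, and DESeq2 called none of the 8). Irf7 measured 331, 377 and 289.9 CPM, within the range of the cKO libraries, and its difference of -0.08 had a 95% interval of -0.49 to 0.33. Irf4 lay below all 9 cKO libraries at 3.83, 4.02 and 4.01 CPM without passing the test (-0.68, adjusted p = 0.11).

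In cKO:Irf7KO, transcripts of Irf7 were still counted, at 109, 112 and 98.2 CPM against 353 ± 74 in cKO (-1.73 ± 0.23, adjusted p = 2.3e-05). A targeted allele can leave RNA outside the deleted part, which gene counts do not resolve. Irf5 measured 186, 187 and 199.7 CPM, below all 9 cKO libraries (272 ± 36 CPM; -0.51, adjusted p = 0.001), and against set 3 alone the difference was -0.32 and not called (adjusted p = 0.21). Irf3 was at 29.5 ± 0.40 against 35.2 ± 2.1 CPM (-0.26, adjusted p = 0.043), a call lost in 9 of 12 fits that left out 1 library, namely any Irf7KO library (adjusted p 0.11 to 0.15), set 1 replicate 1 or 3, set 2 replicate 1 or 3, or set 3 replicate 1 or 2 (0.056 to 0.071). Irf9 lay at the cKO level (95.8 ± 1.9 against 96.1 ± 5.6 CPM, 95% interval of the difference -0.11 to 0.11). In this comparison 10.6% of genes were called. H3f3a (-0.91) and H3f3b (-0.73) were also lower in cKO:Irf7KO than in the cKO sets, so this group differed in H3.3 transcripts as well as in Irf7. Marker sums were also lower there or met the cKO range, with neutrophil genes at 75.9 to 105 CPM against 124 to 288 in the cKO sets, macrophage genes at 3636 to 3970 against 4120 to 5320, and B cell genes at 8.41 to 33.9 against 33.9 to 61.2, and their part in the Irf3, Irf5 and Irf7 values was not tested.

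The pathway around the IRFs was described with lists of known genes. These lists were chosen with earlier results of these data known, so their counts are a description and give no independent support. The 18 ISRE-type target genes, which ISGF3 and other IRFs bind, were all called higher in cKO on days 3 and 5, beside 6% and 2.46% of all genes. Their median log2 fold changes were 5.79 and 3.61 against medians over all genes of 0.04 and 0.01. The highest on day 3 was Ifi44 at 8.82 (0.187 CPM in WT, 85.7 in cKO), with Oasl1 at 7.29 and Ifit3 at 7.18. On day 7 none of the 18 was called (median 0.64). Called higher were 12 of 18 in untreated and 12 in IFNg-treated BMDMs of day 8, 10 of 17 tested in peritoneal macrophages, and 17, 17 and 15 of 18 in sets 1 to 3. Of all genes, 0.558%, 3.59% and 0.639% were called higher on day 8 untreated, with IFNg and in peritoneal macrophages. In sets 1 to 3 the shares were 17.9%, 10.1% and 17.1%. In the antibody experiment 18, 17 and 13 were called higher in cKO without antibody, with control and with IFNAR1 antibody, beside 4.01%, 3.43% and 0.483% of all genes. IFNAR1 antibody lowered 7 and raised 1 of the 18 in cKO relative to control antibody, with Ifi44 at -2.91, Rtp4 at -2.71 and Oasl2 at -2.45, and lowered 3 in WT. Of all genes, 2.25% were called lower and 2.44% higher in cKO, and 3.84% lower in WT. In the double KOs 12 were higher in cKO:StingKO (median 0.54), none was called in cKO:MavsKO (median -0.03), and 5 were higher in cKO:Irf7KO (median 0.35), among them Rsad2 (1.01), Ifit3 (1.01) and Ifit2 (0.93). Of all genes, 19.1% were called higher in cKO:StingKO, 5.9% in cKO:MavsKO and 4.81% in cKO:Irf7KO.

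The 19 IRF1 and GAS-type target genes, such as the guanylate-binding proteins, were all called higher after IFNg in both genotypes. Their medians were 5.65 in WT and 4.31 in cKO, with Cxcl9 at 13.40 and 10.78, respectively. Beside them, 38.9% of all genes were called after IFNg in WT and 33.9% in cKO, in either direction. In cKO against WT, 16 of 18 tested were called on day 3 (median 2.95), 14 on day 5, none on day 7, 1 of 17 in peritoneal macrophages, and 10, 14 and 11 of 19 higher in the sets, with 1 lower in set 2. Of all genes, 8.65% were called on day 3, 3.12% on day 5, 1.82% on day 7 and 1.06% in peritoneal macrophages. In sets 1 to 3, 17.9%, 10.1% and 17.1% of all genes were called higher. Gbp6 (7.50), Gbp5 (4.90) and Gbp4 (4.88) led this list on day 3, the day on which Irf1 itself differed 3.06-fold.

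Of 24 sensors, adaptors and kinases that activate IRF3, IRF5 and IRF7, 8 were called higher and none lower on day 3, led by the nucleic acid sensor Zbp1 (6), Ddx58 (RIG-I, 3.67) and Dhx58 (3), and 15 rose and 1 fell after IFNg in WT, where 19.5% of all genes rose and 19.3% fell. Of 12 factors that pair with IRFs, 5 were called higher on day 3, the day on which 6% of all genes were called higher and 2.64% lower. Stat2 went from 35.4 to 252 CPM (2.83, adjusted p = 0.00076) and Batf2 from 0.869 to 8.68 CPM (3.32, adjusted p = 0.003). Spi1, which encodes PU.1, was not called in any of the 12 cKO and WT comparisons, and it rose after IFNg in WT (0.81, adjusted p = 0.0012). Under IFNAR1 antibody Stat2 fell in cKO (-1.18, adjusted p = 0.0091), as Irf9 did.

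Among 8 repressors and turnover factors of IRF signalling, 4 were called higher on day 3, with Usp18, which dampens IFNAR signalling, at 5.82 and Trim21 at 1.60. Of 9 interferon receptors and JAK kinases, Jak2 was called higher (0.73) and Ifnar1 lower (-0.42) on day 3. On that day 6% of all genes were called higher and 2.64% lower. Of 21 type I and II interferon genes, only Ifnb1 passed the filter on low counts in the time course. It measured 0.0681, 0 and 0 CPM in WT and 2.76, 0.888 and 0.835 CPM in cKO on day 3 (adjusted p = 0.008), and on day 5 cKO replicate 1, the library with the highest Irf7, had 1.89 CPM beside 0.049 and 0. On days 5 and 7 Ifnb1 was not called.

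Genes linked to IRF8 and IRF4 were mixed. Of 13 IRF8-linked myeloid genes, Ly6c2 was called higher (2.56) and Cd68 lower (-0.68) on day 3, and Ly6c2 was higher in cKO on days 5 and 7 and in the 3 sets as well (3.3, 3.79 and 4.02 to 4.6), while Irf8 itself was not called in any of these. Of all genes, 8.65% were called on day 3. After IFNg, where 38.9% of all genes were called, 5 of 12 tested rose and 1 fell in WT, the latter Cx3cr1 at -7.15 (70.6 to 0.468 CPM). Of 10 IRF4-linked alternative activation genes, few passed the filter, 5 on day 3 with Arg1 lower in cKO (-2.54), 6 in peritoneal macrophages with Retnla (-6.42) and Mrc1 (-3.35) lower, and 6 in each set with 2 lower and, in sets 1 and 3, 2 higher (beside 34.6%, 21.9% and 35.9% of all genes called in sets 1 to 3). Peritoneal Irf4 itself did not differ between genotypes beyond its spread (95% interval -0.70 to 0.70).

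Across the 27 groups, the genes whose pattern was most like that of a member were described by Pearson's r of group-mean log2 CPM, each experiment centred on its own mean, among 11170 genes. Irf7 went most closely with Ifi44 (0.973), Oasl1 (0.967) and Lgals3bp (0.966), and Irf9 with Rtp4 (0.956), Oas2 (0.938) and Oasl2 (0.916). Irf1 went with Fgl2 (0.972), Gm12185 (0.966) and Calhm6 (0.964), Irf8 with Zyx (0.966), Tgs1 (0.953) and Peli1 (0.952), and Irf5 with Cers6 (0.927), Cdyl2 (0.925) and Arf6 (0.919). The leading partner was Usp8 for Irf2 (0.94), Fbxo46 for Irf3 (0.861) and Cep44 for Irf4 (0.848). Between members the closest pairs were Irf1 with Irf8 (0.924), Irf2 with Irf8 (0.818) and Irf7 with Irf9 (0.81), and the most opposed were Irf4 and Irf5 (-0.593). The groups share libraries' experiments and treatments, the IFNg groups weigh most on Irf1, Irf2, Irf5 and Irf8, and these values are a description.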

How the data were processed

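RNA-seq was deposited as 1 table of read counts per gene for each of 81 libraries. According to the submitters' processing notes the authors trimmed reads with Cutadapt and aligned them with STAR to mm10, and the methods also name RSEM and SARTools. The labels give an rRNA depletion kit for every library, whereas the methods give a SMART-Seq kit for peritoneal macrophages. The deposited counts used were the unstranded column, which is not normalized. The columns for the single strands held about equal counts, so antisense and overlapping genes were not separated.

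Groups came from the labels (79 libraries), and 2 day 8 cKO libraries whose title and library name conflict were left out. Each experiment was fitted separately across all genes with edgeR 4.0.16 (R 4.3.3): filterByExpr (smallest count 10, total 15), TMM scaling, glmQLFit and glmQLFTest, with all groups of an experiment sharing the dispersion, and a Benjamini-Hochberg adjusted p under 0.05 as the threshold. The 95% intervals rest on the SE of the fitted value. Log2 CPM used a prior count of 2. Depth was 3614967 to 45581528 counts a library, and no replicates were identical (lowest chi-square per degree of freedom 3.67). Nothing ties replicates to separate animals throughout, so p-values measure the spread between these libraries. The fits were tested on simulated counts.

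The 8 members and all gene lists were chosen with earlier results of these data known. Named besides the members were at most the 3 called genes with the largest change in a list and comparison, Stat2, Spi1, Batf2, the targeted genes, Ifnb1, and the 3 genes most like each member. Trim21, Ifnar1, Jak2, Cd68 and Cx3cr1 fall under the list rule. Some genes that these rules name are not reported here.

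The replicate numbers paired the libraries (correlation of deviations over 0.1 in each of 3 pairs) in 6 of 20 comparisons: cKO against WT on day 3 (0.126 to 0.419), on day 7 (0.153 to 0.467) and in peritoneal macrophages (0.144 to 0.194), IFNg in WT (0.335 to 0.451), control against no antibody in WT (0.145 to 0.284), and day 7 against day 3 in cKO (0.138 to 0.415). Alternatives were RLE scaling, no filter, DESeq2 1.42.0, the strand column, fits of only the groups compared, a replicate block, single cKO sets, other assignments of the conflicting libraries, and leaving out each library. The replicate block was shared by all libraries of an experiment, also by groups whose numbers did not pair. Promoter windows and exon lengths came from RefSeq (GRCm38.p6) and GENCODE vM21.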

Additional observations from a re-analysis of the deposited data

Results flagged for a closer look

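The effect of cKO on Irf9 differed between days of differentiation. It was 1.75 on the log2 scale on day 3, where the cKO libraries lay at 85.6, 82.6 and 85.7 CPM and the WT libraries at 27.6, 26.7 and 21.1 CPM, and 0.03 on day 7. The difference of the 2 effects was -1.72 (95% interval -2.25 to -1.19, adjusted p = 0.029 in edgeR's interaction test), and it was called in 2 of the 12 fits that left out 1 library. Summed neutrophil markers changed over the same days, from 1315 to 3427 CPM on day 3 to 55.6 to 227 CPM on day 7, and their part in the Irf9 values was not tested.

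Scaled together with all day 8 libraries, both cKO libraries left out of the groups held Irf7 well above the 44.6 to 64.5 CPM of the untreated WT libraries. The library with 12 h in its title and 0 h in its library name had 181 CPM of Irf7, with 51.8 of Irf1 and 152 of Irf8. Untreated cKO libraries had 204 and 262 CPM of Irf7, 57.0 and 62.6 of Irf1 and 158 and 179 of Irf8. The library with 0 h in its title and 12 h in its library name had 2003 CPM of Irf7, with 1274 of Irf1 and 943 of Irf8. Treated cKO libraries had 1592 and 2373 CPM of Irf7, 984 and 1268 of Irf1 and 595 and 973 of Irf8. For these 3 genes each library lay near the cKO group of its library name and far from that of its title.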

How the results depend on the processing

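Of 2872 values of single members under an alternative, 2688 kept direction and side of the threshold, 106 lost a call, 77 gained one and 1 reversed, while 136 values not called changed sign. Of 47 member calls 16 were made under every alternative. The reversed value was Irf5 in cKO against WT with IFNg, at 0.06 with both cKO libraries and between -0.61 and 0.53 with 1 of them left out.

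The number of members called, 282 of 359 times within 1.5 times of the value reported, moved as follows. With only the groups compared in the fit it was 0 for IFNAR1 against control antibody in WT and in cKO, cKO against WT under IFNAR1 antibody, on day 5 and on day 8 with IFNg, 1 for set 1 and cKO:MavsKO, 3 for IFNg in cKO, untreated day 8, control against no antibody in WT and the day 7 minus day 3 effect, 4 for cKO against WT under control antibody, 5 for set 2 and cKO:Irf7KO, and 6 for cKO:StingKO. DESeq2 called 4 for IFNAR1 against control antibody in WT, 3 for the day 7 minus day 3 effect and 3 for control against no antibody in WT. Without the filter the day 7 minus day 3 effect had 3, and with the strand column it had 0, as had control against no antibody in WT. With the conflicting libraries placed by title the count was 0 for IFNg in WT, IFNg in cKO, and cKO against WT untreated and with IFNg, and by library name it was 2 for the last. Against set 1 alone cKO:StingKO had 1, against set 2 alone 5, and against set 3 alone cKO:MavsKO had 1 and cKO:Irf7KO 1. The cause of these moves was not tested.

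With the replicate block the count was 1 on day 7 (Irf7 1.78), 2 for control against no antibody in WT and 3 for the day 7 minus day 3 effect, where the numbers pair cKO with WT on both days, and the block changed no other call among the paired comparisons. Where libraries share only a number, it was 2 for IFNAR1 against control antibody in cKO (Irf7 and Irf9) and 5 for cKO:StingKO.

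Leaving out 1 library gave 3 to 6 members for day 7 against day 3 in WT, 0 to 1 in cKO and 0 to 3 for the effect between these days. It gave 0 to 3 on day 5, 0 to 1 on untreated day 8, 1 to 5 with IFNg, 4 to 6 for IFNg in cKO and 0 to 5 for the IFNg response. It gave 1 to 3 without antibody, 0 to 1 under IFNAR1 antibody, 0 to 3 for control against no antibody in WT, and 0 to 4 in WT and 0 to 1 in cKO for IFNAR1 against control antibody. It gave 2 to 3 for set 1, set 2, set 3 and cKO:Irf7KO and 2 to 4 for cKO:StingKO, and the count of the other 8 comparisons did not change. Irf4, at 3 to 18 counts a library with IFNg, is the member whose depth limits it most.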

Other observations

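Ly6c2, one of the IRF8-linked genes, was higher in cKO with control antibody (4.01, adjusted p = 1.06e-05) and lower with IFNAR1 than with control antibody in cKO (-4.51, adjusted p = 2.29e-05), while Irf8 was not called in either. Mrc1, an IRF4-linked gene, was below no antibody with control antibody in WT (-2.31, adjusted p = 0.00237) and above control antibody with IFNAR1 antibody (2.59, adjusted p = 0.00191), the order in which Irf4 lay in those arms. Tmem173, which encodes STING, rose after IFNg in WT (32.9 to 251 CPM, 2.93) and in cKO (48.2 to 205 CPM, 2.09), as did 15 of 24 sensors, adaptors and kinases in each genotype (38.9% of all genes were called in WT and 33.9% in cKO, in either direction).

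Ifnb1 was read in both cKO libraries of day 8 with IFNg at 1.81 and 6.93 CPM, against 0, 0.148 and 0.36 CPM in WT. It did not pass the filter on low counts in that experiment and was not tested.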
